A study of Mus musculus with 15 samples.

Results

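The genotype effect shared by the sexes was estimated from all 15 whole pituitary libraries of the series, the 15 members of the comparison, in one additive model with genotype and sex as terms and no interaction. All mice carried a genome-edited deletion that removes PE, the pituitary enhancer of the gene Nr5a1. The controls were heterozygous for the deletion (PE+/−, 4 male and 4 female libraries) and the comparison group was homozygous (PE−/−, 4 male and 3 female libraries). So no library came from an animal with both copies of the enhancer intact. The labels give neither age nor strain, and the line was made by introducing Cas9 and guide RNAs into fertilized eggs. Pit_f and Pit_m, the prefixes of the columns, matched the sex given in the labels. In whole-gland RNA, fewer cells of a type and less RNA per cell cannot be told apart, and gonadal hormones, which act on the pituitary and were not measured here, cannot be told apart from the genotype.

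Nr5a1 encodes NR5A1 (SF-1 or Ad4BP), a nuclear receptor that binds DNA as a monomer at sites related to CAAGGTCA. In the anterior pituitary gonadotropes make it, and these cells release luteinizing and follicle-stimulating hormone. Both hormones pair a common alpha subunit, Cga, with a beta subunit of their own, Lhb or Fshb. Gonadotropes read pulses of hypothalamic gonadotropin-releasing hormone (GnRH) through Gnrhr, and activins, inhibins and gonadal steroids set their output.

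Library totals ran from 12982794 to 30238443 estimated counts, and the 10 most abundant genes took 18.1% to 27.9% of a library. Mean totals were 17582925 in PE+/− and 21874500 in PE−/− libraries, a difference of 4470000 on average within a sex that did not pass an exact permutation test within sex (two-sided p = 0.0714, 2450 arrangements). On the first principal component, 14.4% of the variance, the PE+/− females (−95.8 to −52.8) lay apart from the other groups (5.68 to 43.0). Values below are CPM, counts per 1e6 counts after TMM scaling of the library sizes, and log2 fold changes are PE−/− over PE+/−. Adjusted p-values are those of edgeR's quasi-likelihood test with Benjamini-Hochberg adjustment over all genes tested, with a threshold of 0.05.

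Of 19286 genes tested, 226 (1.17%) were past the threshold, 137 higher (0.71%) and 89 lower (0.461%) in PE−/− glands. Lower genes had the larger changes, with a median log2 fold change of −1.49 against 1.04 for the higher ones, beside 0.0096 over all genes tested. There were 35 lower genes past −2 (0.181%), the limit used by the study, and 23 higher genes past 2. Small changes were common too, with 60 higher and 29 lower genes within 1 of 0. Protein-coding genes made up 129 of the higher and 75 of the lower calls.

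A common effect was defined as a call with the same sign in the fit of each sex alone and with libraries of the genotypes that did not overlap within either sex. Without regard to the test, 138 higher (0.716%) and 75 lower genes (0.389%) had libraries that did not overlap within either sex. The full rule was met by 91 higher (0.472%) and 43 lower genes (0.223%), 134 in all. The fits of the sexes alone could test 208 of the 226 calls in both sexes, and all 208 had the same sign in both. Over all 17074 genes tested in both sexes, 9367 (54.9%) had the same sign. The additive fit was made from the same libraries as these fits, so the shared sign of its calls is a description. Males alone gave 23 calls (0.132%) and females alone 189 (1.05%). Of the 226 additive calls, 157 (103 higher and 54 lower) were made in neither sex alone, 18 were also made in males, 63 also in females and 12 in both. Conversely, 5 male and 126 female calls were not made by the additive fit.

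**Figure D1:**
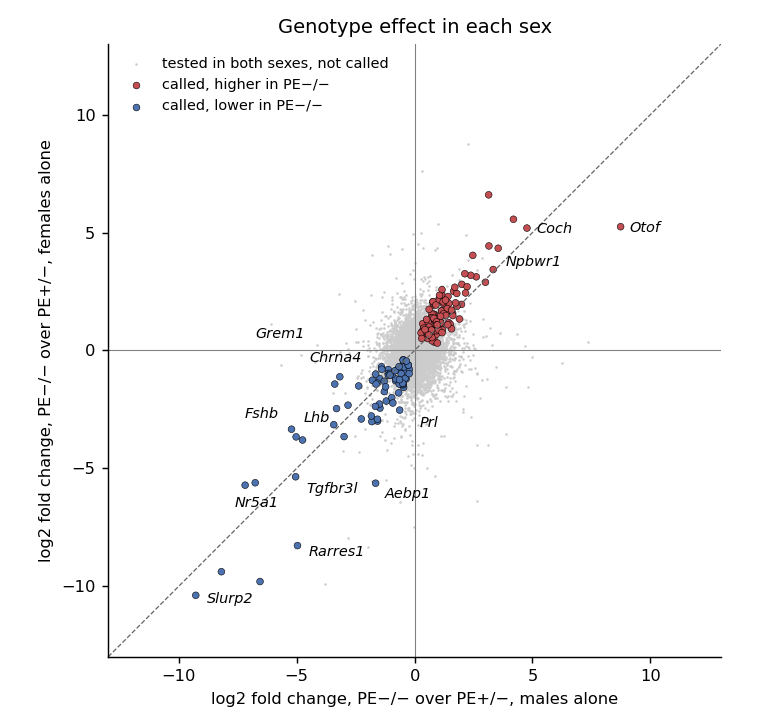
Log2 fold change, PE−/− over PE+/−, in males alone (horizontal axis) and in females alone (vertical axis) for the 17074 genes tested in both sexes; grey points were not called by the additive fit, red points were called higher and blue points lower, and the dashed line marks equal effects. The 208 called genes all lie in the lower left or the upper right quadrant, Aebp1 and Otof among those far from the dashed line.

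The promoters of 4 gonadotrope genes are shown first, since the NR5A1 site is the sequence through which NR5A1 acts on its target genes. Lhb, Tgfbr3l and Nr0b2 were chosen because their windows held a match, and Gnrhr as one whose window held none. Nr0b2 was not called in the additive fit. The windows are RefSeq's on GRCm38.p6, 250 bases before to 50 bases after the start site. Capitals mark CAAGGTCA or CAAGGCCA on either strand, so TGACCTTG and TGGCCTTG are the same sites on the other strand. Lhb lies at chr7:45420696-45420995 on the plus strand, Tgfbr3l at chr8:4247964-4248263 on the plus strand, Nr0b2 at chr4:133553126-133553425 on the plus strand and Gnrhr at chr5:86197852-86198151 on the minus strand.
Lhb: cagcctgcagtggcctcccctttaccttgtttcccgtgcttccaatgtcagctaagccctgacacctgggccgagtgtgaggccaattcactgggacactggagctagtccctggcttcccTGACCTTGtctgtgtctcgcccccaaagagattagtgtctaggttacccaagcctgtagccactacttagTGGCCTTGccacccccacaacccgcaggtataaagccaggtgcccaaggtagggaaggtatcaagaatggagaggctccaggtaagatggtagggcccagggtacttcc
Tgfbr3l: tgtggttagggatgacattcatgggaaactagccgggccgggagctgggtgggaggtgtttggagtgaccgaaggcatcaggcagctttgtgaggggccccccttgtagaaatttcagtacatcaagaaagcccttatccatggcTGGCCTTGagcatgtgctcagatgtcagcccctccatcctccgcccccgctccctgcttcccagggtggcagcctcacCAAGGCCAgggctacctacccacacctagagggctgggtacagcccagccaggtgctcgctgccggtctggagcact
Nr0b2: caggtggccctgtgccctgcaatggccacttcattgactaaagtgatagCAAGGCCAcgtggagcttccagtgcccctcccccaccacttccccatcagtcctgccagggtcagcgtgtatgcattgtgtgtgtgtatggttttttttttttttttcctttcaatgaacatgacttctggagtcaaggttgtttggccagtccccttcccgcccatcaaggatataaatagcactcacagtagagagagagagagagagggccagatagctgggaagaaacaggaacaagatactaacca
Gnrhr: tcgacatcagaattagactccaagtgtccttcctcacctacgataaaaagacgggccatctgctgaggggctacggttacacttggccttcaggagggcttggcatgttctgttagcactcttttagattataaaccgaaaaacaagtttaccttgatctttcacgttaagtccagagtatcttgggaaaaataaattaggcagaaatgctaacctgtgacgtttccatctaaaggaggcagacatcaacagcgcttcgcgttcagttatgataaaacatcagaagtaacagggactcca
The Lhb window held TGACCTTG from base −129 and TGGCCTTG from base −59 of its start site. Tgfbr3l held TGGCCTTG from −105 and CAAGGCCA from −27, Nr0b2 held CAAGGCCA from −201, and the Gnrhr window, shown for comparison, held neither sequence. The windows of Fshb, Nr0b1, Cga and Grem1 and both windows of Spp1, the others of that gene list with a window, held neither sequence either. Promoters were found for 58 of the 89 lower and 90 of the 137 higher genes. A match was present in 4 of 78 promoters of lower genes (5.13%; Gm10354, Lhb, Steap3 and Tgfbr3l) and in 4 of 112 promoters of higher genes (3.57%), beside 3.07% of the promoters of genes tested and 3.92% of all 32851 promoters. The palindromic oestrogen response element (GGTCA and TGACC 3 bases apart) was in 0 promoters of either direction and in 23 (0.07%) of all. A match is a description of the letters in the window, not a site shown to be bound. Only these exact sequences were searched, and NR5A1 binds related ones too. A window without a match is therefore not shown to lack an NR5A1 site.

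Nr5a1 itself was the check of the labels. Every PE−/− library lay between 0 and 0.897 CPM and every PE+/− library between 33.7 and 80.2 CPM. The additive log2 fold change was −6.44 (SE 0.48, edgeR adjusted p = 6.17e-06), and 0.691% of the control mean remained in males and 1.87% in females. Nr5a1os, an antisense transcript that overlaps the 5′ end of Nr5a1, was at 0 counts in all 7 PE−/− libraries and at 0 to 24 counts in the PE+/− libraries (adjusted p = 0.0311). Because strand use in the counting is not known, reads of Nr5a1 and Nr5a1os cannot be told apart. Within 500 kb of Nr5a1, 21 other genes were tested, of which 8 were higher and 13 lower, 5 had an unadjusted p under 0.05, beside 12.7% of all genes tested, and 2 were called, beside 1.17%, Nr5a1os and Gm13589. Gm13589, a long noncoding RNA gene at chromosome 2, 38424002 to 38455851, rose by 1.87 on the log2 scale (SE 0.37, adjusted p = 0.0261). Its libraries overlapped in males, at 0.557 to 1.77 CPM in PE+/− and 0.911 to 6.36 CPM in PE−/−, and did not overlap in females, at 0.488 to 1.09 and 2.54 to 4.02 CPM.

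Among 10 gonadotrope genes fixed as a list, 7 were called lower in the additive fit (70%), beside 0.461% of all genes tested. Part of this list was drawn from these same libraries in the study, so its count is not independent evidence of direction. The list's median log2 fold change was −4.36. Among the hormone subunits, Lhb fell by 4.39 (SE 0.40, adjusted p = 4.73e-05) and Fshb by 4.33 (SE 0.66, adjusted p = 0.00661). Fshb, the beta subunit of follicle-stimulating hormone, was past the threshold in neither sex alone (adjusted p = 0.0506 in males and 0.125 in females). Its levels were 3130, 2200, 3260 and 2230 CPM in PE+/− males against 80.8, 72.1, 128 and 9.11 CPM in PE−/− males. In females they were 359, 331, 163 and 1750 CPM against 40.3, 81.8 and 70.7 CPM. No PE−/− library reached any PE+/− library of its sex, although 1 control female stood far above the other 3. The alpha subunit Cga, which thyrotropes also make, was not called. Its log2 fold change was −0.55 (SE 0.32, adjusted p = 0.551), with male means of 8474 ± 3353 CPM in PE+/− and 5221 ± 2588 CPM in PE−/− (SD over 4 libraries each) and female means of 6412 ± 1160 (n = 4) and 4971 ± 2441 CPM (n = 3), and the libraries of the genotypes overlapped.

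Of the receptors and regulators on that list, Gnrhr, the GnRH receptor, fell by 4.31 (SE 0.32, adjusted p = 6.17e-06), with 76.3 to 197 CPM in the PE+/− and 1.88 to 9.68 CPM in the PE−/− libraries. Tgfbr3l, a co-receptor for inhibin B, fell by 5.19 (SE 0.48, adjusted p = 5.52e-05). It was at 30.2 to 298 CPM in PE+/− and at 2.63 to 3.91 CPM in PE−/− libraries, a spread in the controls that came largely from 1 male library at 298 CPM. Summed with the other rows of its assembled locus, the change was −1.29 and still past the threshold. Nr0b1, the orphan receptor DAX-1, fell by 6.18 (SE 0.61, adjusted p = 9.4e-05) and had 0 to 17 counts in the PE−/− libraries against 201 to 470 in the controls. Spp1, which encodes osteopontin, fell by 2.92 (SE 0.45, adjusted p = 0.00694), from 37.1 to 305 CPM in controls to 7.35 to 23 CPM, and shares an assembled locus with Gm42793 (−2.98). Grem1, a BMP antagonist, was not called. Its log2 fold change was −2.19 (SE 0.87, adjusted p = 0.297), with 16 to 40 CPM in PE+/− males and at most 2.58 CPM in the other groups. Nr0b2, the orphan receptor SHP, was at most 1.76 CPM in any library and was not called either (log2 fold change −4.58, adjusted p = 0.0967).

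**Figure D2:**
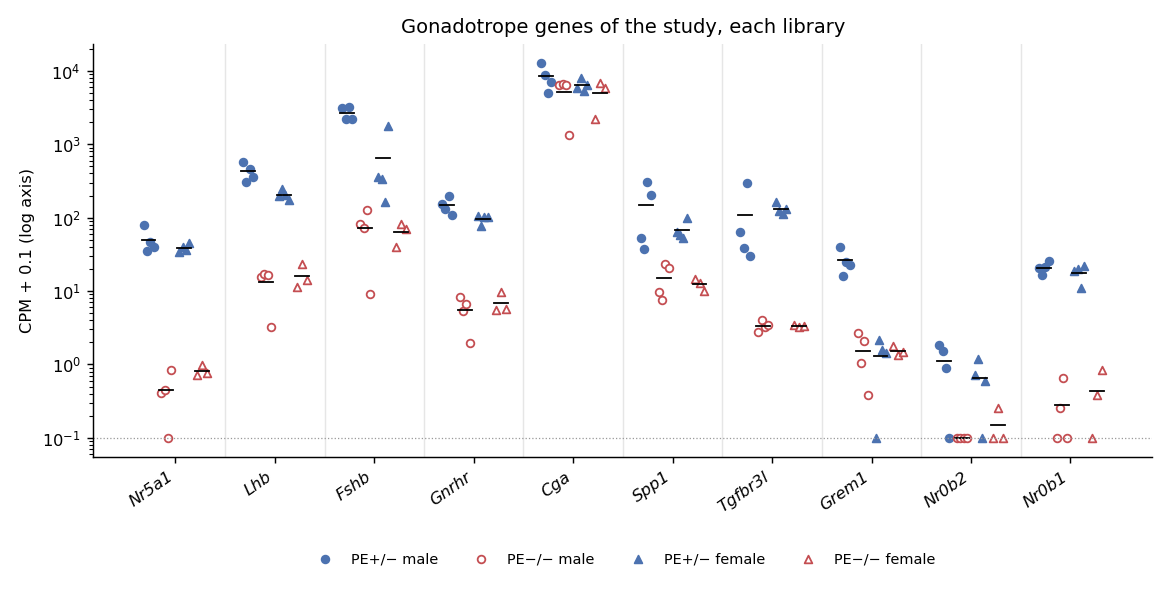
CPM (plus 0.1, log axis) of the 10 gonadotrope genes in each library, with circles for males, triangles for females, filled blue symbols for PE+/− and open red symbols for PE−/−; black bars are group means and the dotted line marks 0 counts. The genotypes do not overlap within a sex for Nr5a1, Lhb, Fshb, Gnrhr, Spp1, Tgfbr3l and Nr0b1, and they overlap for Cga.

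Genes outside this list of gonadotrope genes also fell without overlap of the genotypes. They were not compared with the lists of lower genes that the study reported. Rasgrf1, an exchange factor that activates Ras, stood at 109, 98.4, 109 and 79.3 CPM in PE+/− males and 17.2, 16.6, 30.5 and 18.3 CPM in PE−/− males. Its levels were 140, 106, 48.2 and 133 CPM in PE+/− females and 11.4, 15.3 and 16.2 CPM in PE−/− females. Each PE−/− library was below each PE+/− library, and Rasgrf1 fell by 2.55 on the log2 scale (SE 0.24, adjusted p = 7.03e-05). Slurp2, a small secreted protein of the Ly6 family, had 0 counts in all 7 PE−/− libraries and 57 to 304 counts in the PE+/− libraries. Against a floor of 12 counts (3 fragments) in each library it was at least 7.07-fold lower in males and at least 15-fold lower in females (adjusted p = 9.23e-05). Sult5a1, a sulfotransferase, fell by 3.30 (SE 0.33, adjusted p = 9.23e-05), from means of 7.46 ± 0.786 to 0.688 ± 0.364 CPM in the male groups (SD, n = 4 each) and from 3.84 ± 2.18 (n = 4) to 0.43 ± 0.0556 CPM in females (n = 3). Slc40a1, the iron exporter ferroportin, fell without overlap in either sex. Its levels were 33.2 to 42.6 CPM in PE+/− males and 12.8 to 15 CPM in PE−/− males, and 17.1 to 40.8 against 11.4 to 13.6 CPM in females (log2 fold change −1.35, SE 0.16, adjusted p = 0.000504).

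Among 23 tested pituitary and gonadotrope transcription factors edgeR's quasi-likelihood test called 1 (4.35%, beside 1.17% of all genes tested). DESeq2 called 5 of 24 and limma voom 2 of 23. The 1 member called by edgeR was Foxp2, a forkhead transcription factor. It fell by 1.07 (SE 0.16, adjusted p = 0.00669), from 24.2 ± 3.21 to 9.17 ± 1.47 CPM in the male groups (SD, n = 4 each) and from 16.8 ± 3.18 (n = 4) to 10.5 ± 2.47 CPM in females (n = 3). Chrna4, a nicotinic acetylcholine receptor subunit, fell by 2.45 (SE 0.40, adjusted p = 0.00902). In males it stood at 9.09 to 18.7 CPM in PE+/− and 0.626 to 2.12 CPM in PE−/− libraries, and in females at 4.06 to 10 and 1.8 to 3.15 CPM. Chosen after their values were seen, Slc7a5, a subunit of an amino acid transporter, fell by 1.63 (SE 0.27, adjusted p = 0.00991) and Rarres1 by 5.62 (SE 0.89, adjusted p = 0.00742), with non-overlapping libraries in both sexes. Speer4e (−7.29, adjusted p = 0.00338), Gm10354 (−8.83, adjusted p = 0.00661) and Speer4c (−6.51, adjusted p = 0.0471) are near-identical copies on which reads could be split, so their values are uncertain. The call of Speer4e was lost with limma voom (adjusted p = 0.127). Speer4e and Gm10354 had at most 5 counts in any PE−/− library.

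The higher genes were led by Npbwr1, the receptor for neuropeptides B and W. Its levels were 3.59, 2.27, 3.17 and 1.94 CPM in PE+/− males and 38.4, 38.6, 30.2 and 21.1 CPM in PE−/− males. In females they were 2.58, 0.921, 2.34 and 2.26 CPM against 32.5, 39.9 and 49.8 CPM. Npbwr1 rose by 3.92 on the log2 scale (SE 0.26, adjusted p = 4.82e-06), the smallest p of all genes tested, and its mean was 11.7-fold higher in males and 20.1-fold higher in females. It lies at chromosome 1, 5913707 to 5917398, on the minus strand (GENCODE M21 on mm10). Npbwr1 rose while Gnrhr fell within the same list of 22 tested receptors for hypothalamic hormones and peptides.

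Of 20 tested ephrins and Eph receptors 2 were called (10%, beside 1.17% of all genes tested), both higher. The members of this and all other gene lists here were chosen with earlier results of these data known. The shares of list members called are therefore not independent evidence. Efnb3, the ligand ephrin-B3 (chromosome 11, 69554092 to 69560205), was at 4.02, 2.64, 1.46 and 2.46 CPM in PE+/− males and 14.7, 18.8, 16.9 and 14.5 CPM in PE−/− males. In females it was at 1.95, 2.18, 1.96 and 3.66 CPM against 17.9, 23 and 23.2 CPM. Efnb3 rose by 2.86 (SE 0.21, adjusted p = 6.17e-06), and its mean was 6.13-fold higher in males and 8.75-fold higher in females. Epha3, a receptor for A-type ephrins (chromosome 16, 63543534 to 63864175), rose by 2.05 (SE 0.21, adjusted p = 9.4e-05), from 5.06 ± 1.58 to 15.9 ± 2.56 CPM in the male groups (SD, n = 4 each) and from 3.64 ± 0.817 (n = 4) to 20.8 ± 1.66 CPM in females (n = 3). The median log2 fold change of the list was 0.095.

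The remaining leading higher genes did not belong to a list. Psd2, an exchange factor for small ARF GTPases, rose by 3.38 (SE 0.26, adjusted p = 6.55e-06), from 0.921 to 2.87 CPM over the 8 control libraries to 11.4 to 24.2 CPM over the 7 PE−/− libraries. Ces1d, a carboxylesterase, rose by 1.98 (SE 0.17, adjusted p = 2.65e-05), with 10.1 to 15.6 CPM in PE+/− and 41 to 59.3 CPM in PE−/− males, and 9.64 to 17.7 against 40.9 to 67.7 CPM in females. Nell1, a secreted glycoprotein, rose by 2.08 (SE 0.21, adjusted p = 9.42e-05), from 7.66 to 20.2 CPM in controls to 30.5 to 57 CPM. Car8, a carbonic anhydrase-related protein without catalytic activity, rose (adjusted p = 0.00033), and its mean was 3.05-fold higher in males and 3.02-fold higher in females. Slc17a8, the vesicular glutamate transporter VGLUT3, rose by 1.82 (SE 0.22, adjusted p = 0.000615), from 2.94 to 10.7 CPM to 14.9 to 28.3 CPM.

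Some higher genes were near the floor in controls. Coch, which encodes the secreted protein cochlin, was at 16, 22, 5 and 8 counts in PE+/− males against 400, 455, 565 and 311 in PE−/− males. In females it was at 0, 22, 0 and 30 against 283, 847 and 783 counts. The additive log2 fold change of Coch was 4.97 (SE 0.58, adjusted p = 0.000545). Otof, the calcium sensor otoferlin of inner hair cell exocytosis, had 0 counts in 7 control libraries and 8 in the other, against 38 to 116 counts in the PE−/− libraries. It was at least 3.86-fold higher in males and at least 5.8-fold higher in females (adjusted p = 0.000751). Sox14, a transcription factor named here after its values were seen, was at 0 to 13 counts in controls and 76 to 345 counts in PE−/− libraries (adjusted p = 0.000751). In males it was at least 10.5-fold higher, and in females it had 0, 13, 0 and 0 counts in PE+/− against 85, 345 and 187 in PE−/− libraries.

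**Figure D3:**
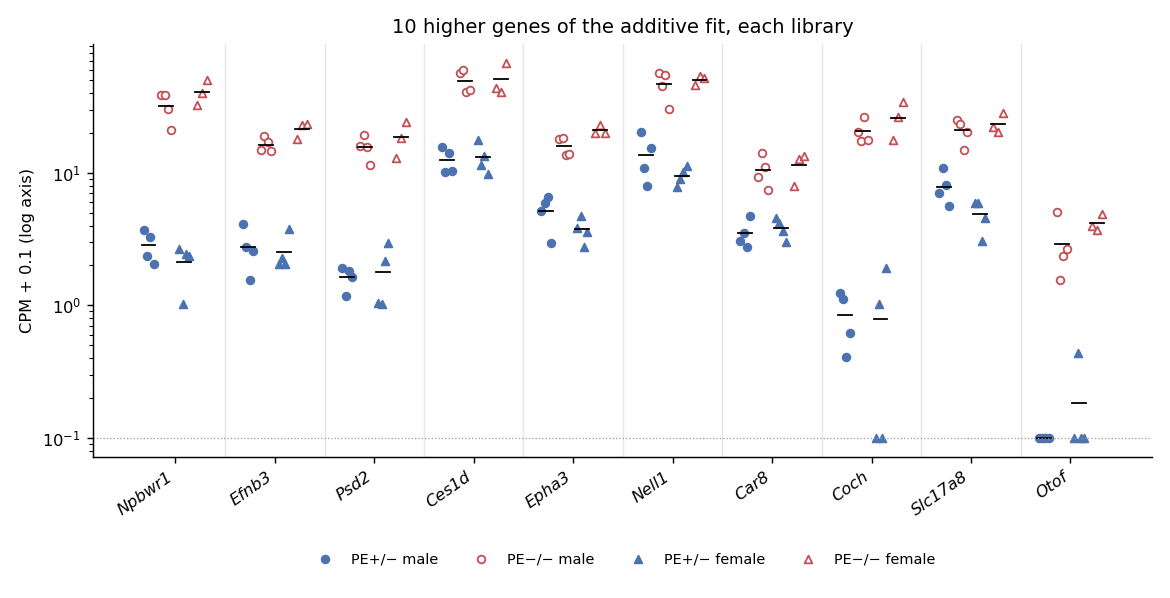
CPM (plus 0.1, log axis) in each library of the 10 higher genes with the smallest adjusted p among those that met the common rule, with symbols as in the plot of the gonadotrope genes. Every PE−/− library lies above every PE+/− library of its sex, and Coch and Otof have control libraries at or near 0.

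Of the genes called by the additive fit and by neither sex alone, Fam110c fell by 0.97 (SE 0.14, adjusted p = 0.00373), with 14.1 to 25.7 CPM in PE+/− and 7.91 to 10.7 CPM in PE−/− males, and 12.3 to 17 against 8.63 to 9.64 CPM in females. Rerg, a Ras-like growth inhibitor known to be regulated by oestrogen, fell by 1.49 (SE 0.22, adjusted p = 0.00556), from 28.7 ± 7.48 to 11.8 ± 3.92 CPM in the male groups (SD, n = 4 each) and from 33.2 ± 12.4 (n = 4) to 9.92 ± 1.41 CPM in females (n = 3). B3galt1, a galactosyltransferase, rose by 1.01 (SE 0.14, adjusted p = 0.00294), 2.08-fold in the means of males and 1.95-fold in those of females. Pcdh7, a protocadherin, rose by 1.03 (SE 0.15, adjusted p = 0.00506), from 5.78 to 11.9 CPM over the controls to 12.5 to 21.9 CPM. Grm2, a metabotropic glutamate receptor, rose by 3.17 (SE 0.48, adjusted p = 0.00606), from 0 to 26 counts in controls to 82 to 218 counts in PE−/− libraries. Gm28800, a predicted gene, rose by 1.33 (SE 0.19, adjusted p = 0.00318). Along with Fshb, Speer4e, Gm10354 and Otof these were the additive-only genes with the smallest adjusted p, and the adjusted p of each in a single sex lay between 0.0506 and 0.29.

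Whether the effect was the same size in both sexes was tested by the interaction of genotype and sex. It was called for 31 genes (0.161%), and 0 of the 226 additive calls were among them. The additive fit counts a difference between the sexes as spread, which makes a call less likely. The 0 was therefore favoured by the choice of the 226 and does not show equal effects. By other tests the number of interaction calls among the 226 was 9 with DESeq2, 3 with edgeR's likelihood ratio test and 1 with limma voom. Without adjustment, 45 of the 226 (19.9%) had an interaction p under 0.05, beside 10.1% of all genes tested. The intervals show how much difference the design could have missed. For Ces1d the female effect minus the male effect was −0.03 on the log2 scale (95% interval −0.78 to 0.72), and for Car8 −0.01 (−0.81 to 0.78). For Npbwr1 it was 0.79 (−0.19 to 1.78), and for Lhb 1.36 (0.06 to 2.67, interaction adjusted p = 0.452). The 3 calls with the smallest interaction p were Aebp1, Sh3d19 and Abracl, all lower.

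Aebp1, a matrix-associated protein, stood at 25.7, 87.1, 278 and 171 CPM in PE+/− females and at 3.15, 2.32 and 3.02 CPM in PE−/− females. In males it was at 9.09, 8.02, 6.53 and 7.24 CPM against 1.92, 2.18, 2.53 and 3.19 CPM. It was lower in PE−/− glands of both sexes without overlap, with log2 fold changes of −1.65 in males and −5.64 in females, and the difference of these effects was −3.98 (−5.64 to −2.32, interaction adjusted p = 0.0585). Abracl fell by 0.47 in the male fit and by 1.57 in the female fit (difference −1.10, −1.62 to −0.57, interaction adjusted p = 0.0977), and Sh3d19 by 0.63 and 2.53 (difference −1.90, −2.78 to −1.01, interaction adjusted p = 0.087). Their additive effects were −3.37, −0.96 and −1.48 for Aebp1, Abracl and Sh3d19 (adjusted p = 0.0474, 0.0248 and 0.0489). Abracl was not called without PE−/− female replicate 1, 2 or 3 (−0.93 to −0.85). Aebp1 was not called without PE+/− female replicate 2 or 4, any one PE−/− female, PE+/− male replicate 1, 2 or 3, or PE−/− male replicate 1, 2 or 3 (−3.70 to −2.91). The Aebp1 call was also lost with library totals, robust=TRUE, no low-count filter or thinned counts (−3.37 to −3.30, adjusted p = 0.0535 to 0.0634). Sh3d19 was not called without any one PE+/− female, any one PE−/− female, PE+/− male replicate 3, or PE−/− male replicate 1, 2 or 3 (−1.52 to −1.31), nor with library totals (adjusted p = 0.0586) or no low-count filter (adjusted p = 0.0661).

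Among 10 tested oestrogen-induced genes, 1 was called higher and 2 lower, a share of 30% beside 1.17% of all genes tested. The median log2 fold change was −0.95, with 9 of the 10 under 0. This median pools the sexes, and of the 9 members tested in both sexes 7 had the same sign in both. Greb1 was at −1.80 in males and −5.55 in females, Gal at −1.99 and −8.34, and Pgr at 0.18 and −1.73. None of Greb1, Gal and Pgr was called by the additive fit. Igfbp3 had the larger fall in males, at −1.64 against −1.43 in females. DESeq2 called 3 of 11, and limma voom and the likelihood ratio test called 5 of 10 each. Tgfa, transforming growth factor alpha, was the higher one (1.41, SE 0.20, adjusted p = 0.00332), at 5.99 to 11.3 CPM in PE+/− and 14.2 to 24.4 CPM in PE−/− males, and 4.68 to 10 against 20.8 to 22 CPM in females. Rxfp1, the relaxin receptor, was at 19.1, 29.2, 35.4 and 42.4 CPM in PE+/− females and at 0 counts in the 3 PE−/− females, at least 57.7-fold lower. In males Rxfp1 was at 0, 14, 27 and 0 counts in PE+/− and at 0 in the 4 PE−/− libraries (additive adjusted p = 0.0144). Igfbp3, an IGF binding protein, fell by 1.54 (SE 0.33, adjusted p = 0.0376), with overlapping libraries in females. Its call was lost without PE+/− female replicate 2, 3 or 4, any one PE−/− female, PE+/− male replicate 1, 3 or 4, or any one PE−/− male (−1.68 to −1.33), or with no low-count filter (adjusted p = 0.0536). Prl, the lactotrope hormone, is also on the list. Its log2 fold change was −1.23 (SE 0.53, adjusted p = 0.347), with an effect of −0.17 in males and −2.58 in females, and without PE−/− male replicate 4 it was −1.76 (adjusted p = 0.0295).

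In steroid synthesis and metabolism, 13 of 26 genes were tested and 3 were called (23.1%, beside 1.17% of all genes tested). Sult5a1 was lower and the other 2 were higher. DESeq2 called 4 of 25, limma voom 4 and the likelihood ratio test 5. Hsd17b12, which reduces long-chain acyl intermediates and oestrone, rose by 0.53 (SE 0.09, adjusted p = 0.0144), from 127 to 157 CPM to 160 to 200 CPM in males and from 110 to 136 CPM to 174 to 206 CPM in females. Hsd11b1, which regenerates active glucocorticoid, rose by 0.67 (SE 0.12, adjusted p = 0.0161). Both calls were lost without PE−/− female replicate 2 (0.47 for Hsd17b12 and 0.65 for Hsd11b1) or replicate 3 (0.50 and 0.67). Among receptors for hypothalamic hormones and peptides, 3 of 22 were called (13.6%, beside 1.17% of all genes tested). Npbwr1 was higher, and Gnrhr and Drd4 were lower. Drd4, a dopamine receptor, was at 306, 32, 46 and 109 counts in PE+/− males, at 0, 0, 0 and 8 counts in PE+/− females and at 0 in all PE−/− libraries (adjusted p = 0.0438). Its call was lost without any one library except PE+/− male replicate 2 (−9.69 to −8.20, adjusted p up to 0.0869), and with limma voom (adjusted p = 0.0559) or the mean of the sex effects (adjusted p = 0.0629).

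Of 43 tested voltage-gated and potassium channels, 3 were called, all higher (6.98%), beside 0.71% of all genes tested called higher. The median was 0.38 with 32 members above 0, beside a median of 0.0096 over all genes tested. DESeq2 called 6 of 46, limma voom 3 and the likelihood ratio test 4. Kcnk3, the background potassium channel TASK-1, rose by 1.33 (SE 0.22, adjusted p = 0.011), from 12.3 to 21.7 CPM to 24.9 to 35.2 CPM in males and from 6.75 to 14.6 CPM to 36.6 to 41.2 CPM in females. Scn9a, the sodium channel Nav1.7, rose by 1.38 (SE 0.25, adjusted p = 0.0154), a call lost without PE−/− female replicate 3 (1.33). Cacna1i, a T-type calcium channel subunit, rose by 1.02 (SE 0.20, adjusted p = 0.0208), a call lost without PE−/− female replicate 2 (0.95) or 3 (1.03) or PE−/− male replicate 1 (0.99). Of 27 ligand-gated receptor subunits edgeR's quasi-likelihood test called 1, Chrna4 (3.7%, beside 1.17% of all genes tested). DESeq2 called 4 of 32 and the likelihood ratio test 2. Of 29 extracellular matrix genes edgeR's quasi-likelihood test called 1, Aebp1 (3.45%), and DESeq2 and limma voom called 2 each.

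For 8 lists the additive fit made no call. None of the 30 tested genes of GnRH receptor signalling was called (median 0.13), nor any of 15 enzymes that build the gonadotropin glycans (−0.05), 9 androgen or glucocorticoid-induced genes (0.20), 14 local neuropeptides (−0.53), 12 granins and processing enzymes (0.16), 27 genes of regulated exocytosis (0.13), 20 of protein folding in the endoplasmic reticulum (−0.13) or 24 of the cell cycle (0.06). These medians pool the sexes. Of the 9 androgen or glucocorticoid-induced genes, 2 had the same sign in both sexes, beside 54.9% of all genes tested in both. The summed level of the local neuropeptides was 513 to 1320 CPM in PE+/− females and 81.4 to 89.6 CPM in PE−/− females. In males it was 105 to 146 and 83.7 to 119 CPM. Of 30 activin, inhibin and BMP genes edgeR's quasi-likelihood test called 1, Tgfbr3l (3.33%, beside 1.17% of all genes tested, median 0.12). DESeq2, limma voom and the likelihood ratio test called 2 each. Of the 151 genes of the 8 lists without a call, 30 (19.9%) had an unadjusted p under 0.05, beside 12.7% of all genes tested. DESeq2 called 11 members of these lists (Cacna1c, Camk2b, Chga, Mcm6, Nmu, Rab27b, Rab3d, Rims1, Rims3, Sgk1 and Vip), limma voom 4 (Chga, Crhbp, Gal and Vip) and edgeR's likelihood ratio test 4 (Chga, Gal, Nmu and Vip).

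**Figure D4:**
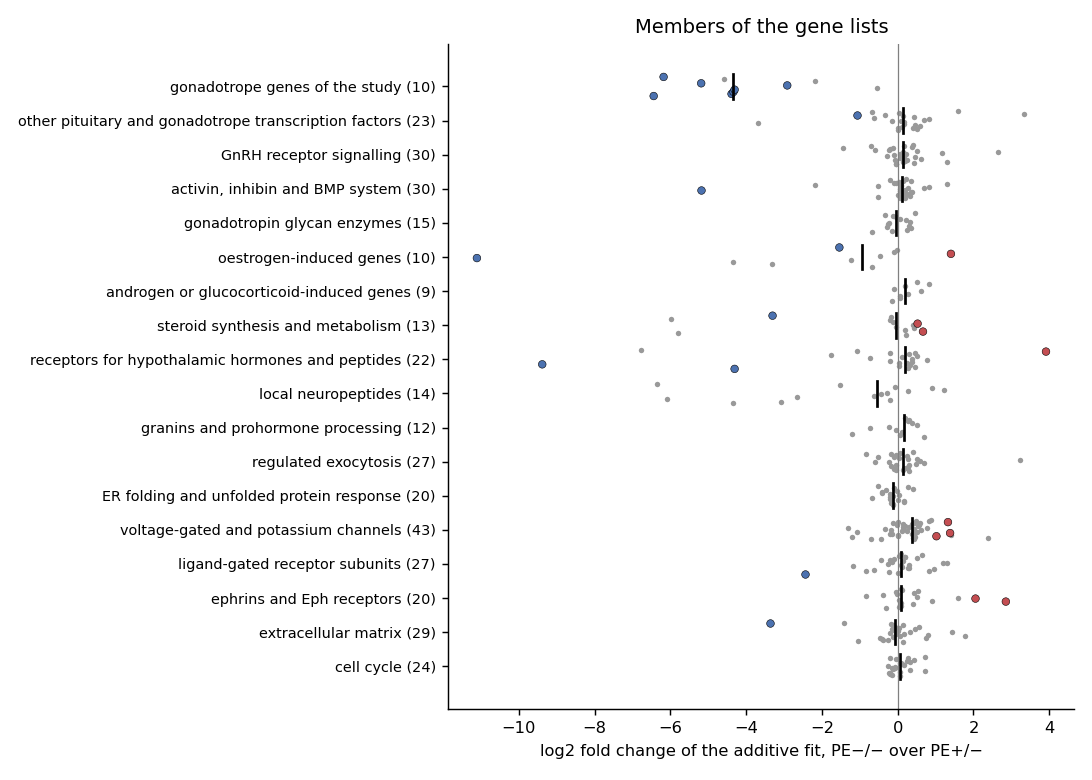
Additive log2 fold change, PE−/− over PE+/− (horizontal axis), of each tested member of 18 gene lists, with the number tested in brackets; grey points were not called, red were called higher, blue called lower, and black bars are list medians. The gonadotrope genes of the study have a median of −4.36, and the other medians lie between −0.95 and 0.38.

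For 9 cell type lists edgeR's quasi-likelihood test made no call in either direction. They were somatotropes, lactotropes, thyrotropes, corticotropes, melanotropes, the posterior lobe, endothelium, immune cells and erythroid cells. These lists were grouped because they held no call. Of their 49 tested markers, 14 (28.6%) had an unadjusted p under 0.05, beside 12.7% of all genes tested. The 8 endothelial markers all had a log2 fold change under 0 (median −0.41, 4 with an unadjusted p under 0.05), with summed levels of 99.7 to 380 CPM in PE+/− and 95.9 to 140 CPM in PE−/− libraries. So did the 5 erythroid markers (median −0.91, 3 with an unadjusted p under 0.05), with summed levels of 499 to 1350 CPM in PE+/− and 204 to 895 CPM in PE−/− libraries. The 5 melanotrope markers were all above 0 (median 0.53, 3 with an unadjusted p under 0.05), with summed levels of 15700 to 58900 CPM in PE+/− and 5440 to 116000 CPM in PE−/− libraries. DESeq2 called 2 of the 49 (Emcn and Neurod1), and limma voom and the likelihood ratio test called 0. Of 8 stem or folliculostellate markers 1 was called (12.5%, beside 1.17% of all genes tested), Lcn2, lower (−1.97, SE 0.42, edgeR adjusted p = 0.0369). That list had 5 members above 0, 3 under 0 and a median of 0.44. Of 8 pericyte or fibroblast markers 1 was called (12.5%), Rgs5, lower (−0.98, SE 0.20, edgeR adjusted p = 0.0249). The median of that list was −0.095, with 6 members under 0 and 2 above 0. Gh was at −0.03 (adjusted p = 0.987), with −0.61 in males and 0.62 in females (difference 1.23, 95% interval 0.41 to 2.06, interaction adjusted p = 0.249). Its male means were 162435 CPM in PE+/− and 106840 CPM in PE−/−, and its female means 78642 and 121731 CPM. Pomc was at 0.53 (adjusted p = 0.724) and Tshb at −0.05 (adjusted p = 0.981). These markers varied between libraries of one group. The summed level of the 7 posterior lobe markers ran from 4.09 to 195 CPM in PE+/− males, 5.82 to 147 in PE−/− males, 8.28 to 20.9 in PE+/− females and 3.68 to 6.9 in PE−/− females. Pomc, made by corticotropes and by melanotropes of the intermediate lobe, ran from 4640 to 115000 CPM within PE−/− males. Of 12 immediate early genes 0 were called by edgeR, DESeq2 or limma voom, 3 had an unadjusted p under 0.05 in edgeR's test, 11 had a log2 fold change above 0 and the median was 0.59, with summed levels of 474 to 3610 CPM in controls and 2130 to 4990 CPM in PE−/− libraries. The 9 mitochondrial transcripts had a median of −0.42 with 0 called by the same tools and 1 at an unadjusted p under 0.05. The part of these differences in the additive calls was not tested.

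The number of calls depended on single libraries more than their direction did. Leaving out each library in turn gave 43 to 158 higher and 31 to 109 lower genes. The lowest numbers came without PE−/− female replicate 3 (43 higher and 32 lower) or replicate 2 (46 and 31), which left that group with 2 libraries. Lower numbers by over 1.5 times in at least 1 direction also came without PE−/− male replicate 1 (65 and 45), PE−/− female replicate 1 (99 and 42), PE+/− female replicate 2 (91 and 43), PE+/− female replicate 4 (82 and 48) and PE+/− male replicate 3 (104 and 53). In all of these fits 0 of the 226 calls changed sign. The fits share most libraries with the one that chose the calls, so the kept sign is a description. The 226 calls included 67, 39 higher and 28 lower, that were made in every one of the 15 fits, and 57 of the 67 met the common rule. Genes meeting the common rule numbered 40 higher and 24 lower without PE−/− female replicate 2, 37 and 26 without replicate 3 of that group and 50 higher without PE−/− male replicate 1. With PE+/− male replicate 4 left out 67 common lower genes were found, and with replicate 4 of the PE−/− males 70. Lower genes past −2 numbered 23, 22 and 22 without PE−/− female replicate 1, 2 or 3.

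**Figure D5:**
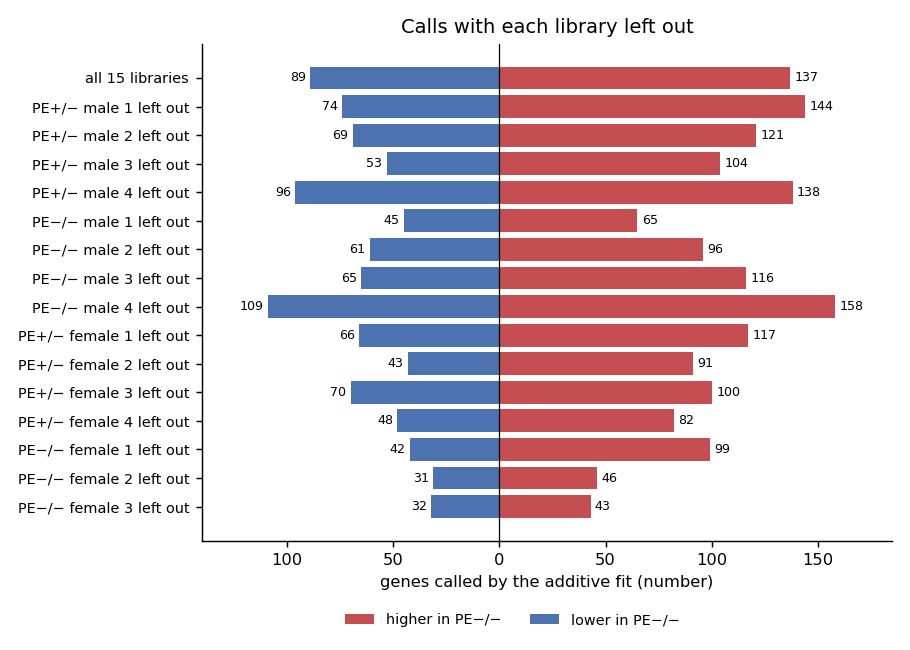
Number of genes called by the additive fit, higher (red, to the right) and lower (blue, to the left) in PE−/−, with all 15 libraries and with each library left out. The count falls furthest without PE−/− female 2 or 3 and is highest without PE−/− male 4, at 158 higher and 109 lower.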

How the data were processed

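Whole pituitary RNA was sequenced in 15 libraries, 1 per sample. The sources used here do not give the number of mice per library. Per the submitters' processing notes and the study's methods, the authors used cutadapt for trimming, STAR for mapping to mm10 and featureCounts for counting. The deposited table holds estimated counts, as whole numbers and not normalized, 1 column for each library. Row names of the form of an assembled locus with a gene symbol point to an assembly step that the sources used here do not describe, and counts of 5 were 1.52 times as frequent as their neighbours, so about 4 counts stood for 1 fragment. The table had 55523 rows, of which 55445 were matched to GENCODE M21 for coordinates. There were 1053 loci with more than 1 row, and 13 of the calls lay in one. Strand use is not given in the sources used here.

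The additive fit used R 4.3.3 and edgeR 4.0.16 (quasi-likelihood F test, two-sided, TMM factors, filterByExpr by the 4 groups with a minimum count of 10 and a minimum total of 15), with sex as covariate and Benjamini-Hochberg adjustment over all genes tested. The common biological coefficient of variation was 47.7%. Each standard error is the absolute log2 fold change over the root of its F statistic. The same test was used within each sex and for the interaction. A gene at or under 12 counts, or 3 fragments, in every library of a group was treated as lying at the floor, which covers counting error only, since reads had no molecular identifiers. The labels do not say whether mice shared litters, so p-values measure the spread between these samples. Replicates differed by more than counting noise (chi-square per degree of freedom 17.9 to 57.8).

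Named genes were the 10 listed gonadotrope genes, all of them named in the study, and 4 other pituitary hormones. A further rule took genes that met the common rule with a mean of at least 20 counts in the higher genotype. Of these, the 10 lower and 10 higher with the smallest adjusted p were named. Under the same conditions, the 5 lower and 5 higher called in neither sex alone were named. The 3 calls with the smallest interaction p and up to 4 called members of each list were also named. Genes outside this rule are named as chosen after their values were seen, or because they belong to a count. Gene members and lists were chosen with earlier results of these data known. Alternatives were DESeq2 1.42.0, DESeq2 size factors, library totals, limma 3.58.1 voom, other edgeR tests, other filters, counts divided by 4, thinned counts, rows summed per locus, the mean of the sex effects, a block for the replicate number, and fits with 1 library left out. On simulated data with 18719 genes, the additive test recovered 48% of genes changed by a log2 fold change of 1 and 87% of those changed by 2, with 3 false calls. The changed genes had a mean of at least 20 counts, and counts were drawn with the dispersions of the fit. No sex effect was simulated, so low-count genes and effects that differ between the sexes are not covered. Isolated gonadotropes were not analysed here.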

Additional observations from a re-analysis of the deposited data

Results flagged for a closer look

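Over the 50 named genes, 144 groups of 4 libraries were examined for a single library far from the others, and 12 held one. The limit used is set for a rate of 1 in 20 in independent, normally distributed values. CPM need not be so distributed, a lone value above 0 is always flagged, and some libraries were flagged for more than 1 gene. The 12 can therefore not be compared with that rate. The group of 3 PE−/− females was not examined.

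Among the lower genes, Lhb had its lowest PE−/− male library at 3.13 CPM (replicate 4), the nearest other at 15.2, and Cga had the same library at 1350 CPM, the nearest other at 6380. Fshb had 1 PE+/− female at 1750 CPM (replicate 4) with the next at 359, and Tgfbr3l had 1 PE+/− male at 298 CPM (replicate 3) with the next at 62.9. Gnrhr had 1 PE+/− female at 76.3 CPM (replicate 2) below the others, which began at 101. Rasgrf1 had 1 PE−/− male at 30.5 CPM (replicate 3) above 18.3, and Fam110c had 1 PE+/− female at 12.3 CPM (replicate 3) below 16.7. Speer4e was at 0.285 CPM in 1 PE−/− male (replicate 4) and 0 in the other 3. Drd4 was at 0.488 CPM in 1 PE+/− female (replicate 4) and 0 in the other 3.

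Among the higher genes, Efnb3 had 1 PE+/− female at 3.66 CPM (replicate 4) with the next at 2.18, Gm28800 had the same library at 6.53 CPM with the next at 4.45, and Otof was at 0.335 CPM in 1 PE+/− female (replicate 2) and 0 in the other 3. In each of these except Cga and Drd4 the libraries of the genotypes did not overlap within a sex.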

How the results depend on the processing

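No gene among the 226 calls changed sign in any of the 31 alternatives. The alternatives refit the same libraries from which the calls were chosen, so the kept sign is a description. In all 31 alternatives, 21 of the calls were made (12 higher and 9 lower, with Npbwr1, Efnb3, Epha3, Lhb, Gnrhr and Rasgrf1 among them). The numbers of calls moved more than their directions. Against 137 higher and 89 lower genes, 35 lower past −2, 91 common higher, 43 common lower and 31 interaction calls, DESeq2 gave 380 higher, 364 lower, 77 past −2, 73 common lower and 368 interaction calls, and set 35498 adjusted p-values to NA. Limma voom gave 222, 181, 57 past −2 and 75 interaction calls, and the likelihood ratio test gave 245, 174, 80 past −2 and 202 interaction calls. With the legacy=FALSE option 138 were lower and 66 past −2, without a low-count filter 51 were lower, and the mean of the sex effects gave 270 higher and 261 lower. DESeq2 called 224 of the 226, limma voom 210, the likelihood ratio test 217 and the fit without a filter 151. With each library left out in turn, the ranges were 43 to 158 higher, 31 to 109 lower, 22 to 45 past −2, 37 to 130 common higher, 24 to 70 common lower and 7 to 71 interaction calls, the last being 71 when replicate 1 of the PE+/− females was left out and 7 when replicate 3 of the PE−/− females was. Deviations of same-numbered libraries correlated at −0.0801 to 0.132 (7 pairs) against −0.125 to 0.12 for other pairs. Of 14 libraries, 4 correlated best with their own number. So few pairs cannot settle whether replicate numbers pair the libraries. With the replicate block there were 51 higher, 37 lower, 22 past −2, 43 common higher and 26 common lower genes and 11 interaction calls, and 86 of the 226 were called. With the replicate block within sex there were 14 higher, 14 lower, 12 past −2, 14 common higher and 12 common lower genes, with 0 interaction calls and 28 of the 226 called. Gh, not called, turned from −0.03 to 0.00269 with library totals and 0.0130 with the mean of the sex effects, and ranged from −0.238 to 0.116 with single libraries left out. Tshb, not called and at −0.05, ranged from −0.185 to 0.140 with single libraries left out. Over 1545 pairs of a named gene and an alternative, 1426 kept their direction and side of the threshold, 102 lost the call, 5 gained it and 12 reversed. Of the 43 named genes called, 19 kept the call in every alternative that tested them. The lost calls given for single genes in the paragraphs on the results leave out both replicate blocks. With the block within sex, Fshb and Slurp2 were among the named genes that lost the call (edgeR adjusted p = 0.168 and 0.162). The cause of these shifts was not tested. With libraries of this depth and number, a simulated log2 fold change of 1 was recovered for 48% of genes. This holds for genes with a mean of at least 20 counts and the same effect in both sexes.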
